A study of Mus musculus with 8 samples.

Results

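The 87 genes described here encode the proteins of the cytosolic ribosome, with a few close relatives. They were chosen by symbol: a probe counted if its RefSeq accession belonged to a protein-coding mouse gene named Rpl or Rps followed by a number, or to Rplp0, Rplp1, Rplp2 or Rpsa. The Rps6k kinases and genes named as pseudogenes were left out. Of 21154 genes with a symbol on the array, 87 met the rule, through 175 probes. They comprised 42 proteins of the large subunit, 31 of the small subunit, 3 of the stalk, 9 paralogs or retroposed copies, and 2 genes, Rps19bp1 and Rps23rg1, whose symbols fit the rule although neither is known as a structural ribosomal protein. The rule itself used no measured value, but it was set with earlier results of these data known.

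The cytosolic ribosome joins a small subunit, which reads the mRNA, to a large subunit, which forms peptide bonds, and a stalk on the large subunit recruits the elongation factors. Most of the proteins are present in a single copy per ribosome, so cells make them in matched amounts. Most of their mRNAs start with a terminal oligopyrimidine (TOP) tract, through which the growth-sensing kinase complex mTORC1 controls their translation, and in T cells ribosome production rises with activation.

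RNA came from CD4 single-positive thymocytes of mice, sorted and lysed without culture, in 4 groups of 2 biological replicates. The wild-type (WT) groups were Tconv, conventional cells sorted as CD25-low, and Treg, regulatory cells sorted as Foxp3+. Nr4a-TKO preTreg, sorted as CD25-high, GITR-high and Nr4a3-high, and Foxp3-KO preTreg, sorted as CD25-high and positive for a Foxp3 reporter, were precursors from mice lacking Nr4a orphan nuclear receptors or Foxp3, the transcription factor that defines regulatory T cells. There was no wild-type precursor group, so each knockout differs from a wild-type group by genotype and by gate together. The labels do not say which exons were deleted, which Cre line, if any, was used, whether animals were pooled, or their age.

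Values are log2 Cy3 signal relative to the 75th percentile of the same array, so a level of 8 lies 8 doublings above that percentile. The processed signal at the 75th percentile was 329 to 386 units, the share of spots well above background was 48.5% to 53.0%, and no spot was saturated. All 10 of the 12 listed CD4 T cell markers that are on the array were above background in all 4 groups. Foxp3 stood at -3.57 and -3.95 in WT Tconv, 4.84 and 4.56 in WT Treg, 1.79 and 1.58 in Foxp3-KO preTreg, and 3.60 and 3.08 in Nr4a-TKO preTreg. Nr4a1 was not lower in the arrays labelled Nr4a-TKO (7.54 and 7.79) than in WT Tconv (6.67 and 6.68), nor was Nr4a2 (3.53 and 3.70 against -1.68 and -1.72), and Nr4a3 was at -0.61 and -0.29 against -1.70 and -1.73, with -0.52 and 0.85 in WT Treg. Since the deleted parts are not given, these probes do not check the label, and these arrays are called the arrays labelled Nr4a-TKO.

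Markers of other cells moved with the groups. The summed linear level of the 11 B cell markers on the array was 2.42 to 2.57 times the 75th percentile in WT Tconv, where 6 were not above background (Pax5 and Ebf1 among them), 5.12 to 6.41 in WT Treg, 18.4 to 77.5 in the arrays labelled Nr4a-TKO, where none was undetected, and 7.15 to 37.0 in Foxp3-KO preTreg, where Pax5 was undetected. The 20 myeloid markers summed to 76.2 to 78.1, 143 to 218, 309 to 453 and 218 to 315 in the same order, with 8, 1, 0 and 0 not above background. Bright genes weigh most in this linear sum, among them H2-Eb1 (mean 6.82 in the arrays labelled Nr4a-TKO). WT Tconv was not lowest for every list. The 9 innate-like or NK markers summed to 12.3 to 12.4, 3.86 to 6.93, 13.7 to 16.1 and 13.1 to 46.9 in that order. The 11 immature or CD8 thymocyte markers were highest in WT Tconv (86 to 86.6). The part of these other cells in the ribosomal protein results was not tested. All arrays lay on 1 slide, WT Tconv and Nr4a-TKO in array row 1 and WT Treg and Foxp3-KO in array row 2, so wherever a comparison crosses the rows, group and row are confounded and cannot be told apart.

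The ribosomal protein genes were among the brightest genes on the array in all groups, and they varied little. Of the 87 genes, 84 were above background on all 8 arrays, and 85 passed the filter for testing, which asked for signal above background on both arrays of at least 1 group. Those left out were Rpl10l and Rpl3l. A total of 81 members were brighter than 90% of the 13498 genes tested, and the dimmest of the 76 structural members lay at the 98.0th percentile of brightness. The distance from the lowest to the highest of the 8 arrays had a median of 0.31 on the log2 scale over the members, against 0.77 over all genes tested. It was under 0.5 in 81 of 85 members (95.3%), against 26.6% of all genes tested. Brighter probes carry less background noise, and this difference in spread was not matched for brightness.

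The steadiest member was Rps12, a small subunit protein, at 9.52 and 9.55 in WT Tconv, 9.47 and 9.56 in WT Treg, 9.45 and 9.47 in the arrays labelled Nr4a-TKO, and 9.53 and 9.42 in Foxp3-KO preTreg. Its lowest and highest arrays differed by 0.14. The members exceeding 0.5 were Rps7 (0.57), Rpl31 (0.72), Rps15a (0.80) and Rpl39l (5.01), the last of which was below background in WT Tconv. Rps12 was chosen after its values were seen.

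Much of the remaining variation was common to the whole family and belonged to single arrays. Taken as the median over the 76 structural members of each gene's value minus its own mean, this shared shift was 0.01 and 0.09 in WT Tconv, 0.03 and 0.12 in WT Treg, -0.17 and -0.08 in the arrays labelled Nr4a-TKO, and 0.05 and -0.07 in Foxp3-KO preTreg. The family moved together even between replicates: 80 of 85 members were higher in the second WT Tconv array than in the first, 81 in the second WT Treg array, 78 in the second array labelled Nr4a-TKO, and 81 in the first Foxp3-KO array. Median replicate gaps were 0.08 to 0.11 for members, against 0.08 to 0.20 for all genes tested. After the shared shift was removed, 70 of the 76 structural members stayed within 0.2 of their own mean on all 8 arrays. The 6 exceptions were Rpl14, Rpl31, Rplp1, Rps15a, Rps2 and Rps7.

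**Figure D1:**
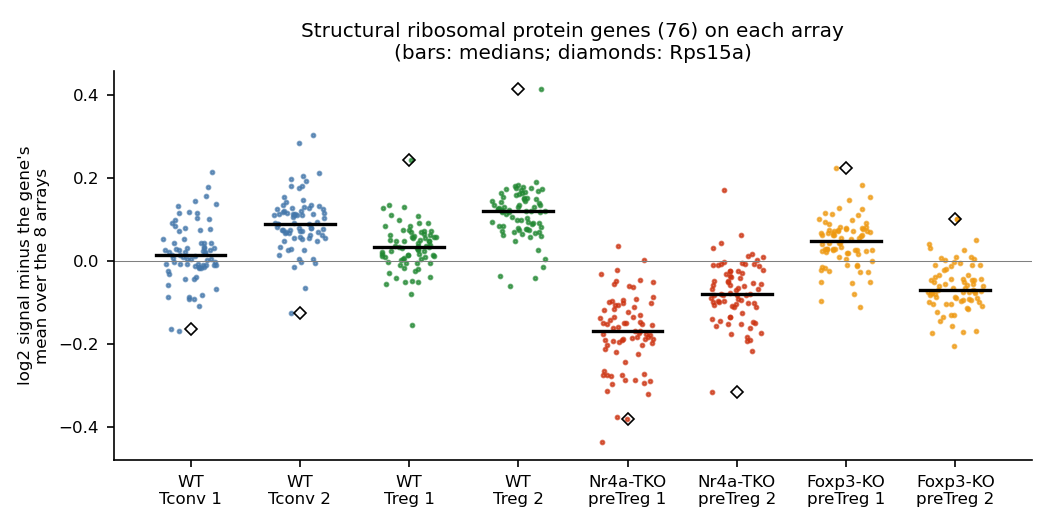
Each point is 1 of the 76 structural ribosomal protein genes on 1 array, as log2 signal minus the gene's mean over the 8 arrays; bars are medians over the genes and open diamonds repeat the point of Rps15a. The points move as a block, with the lowest median (-0.17) on the first array labelled Nr4a-TKO and the highest (0.12) on the second WT Treg array, while Rps15a sits near or beyond the edge of the block on most arrays.

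Promoter letters were looked up for the members, and no motif searched near the start was held by most of them. RefSeq promoters (mouse assembly GRCm38.p6, 250 bases before to 50 after the annotated start) were available for 67 of the 87 members. The pyrimidine run CTCTTTC, a TOP-like sequence, lay on the transcript strand within 40 bases of the start in 10 of 67 members (14.9%), against 0.972% of 17492 protein-coding promoters. Its core CTTTC, which lies inside CTCTTTC and therefore counts those matches too, did so in 27 members (40.3%) against 9.06%. On either strand of the whole 300 bases, CTCTTTC was in 25.4% of members against 7.65% of all promoters, and CTTTC in 79.1% against 54.9%. The ETS-factor core CCGGAAG was in 24 members (35.8%) against 11.9% on either strand, the YY1 core AAGATGG in 9 (13.4%) against 6.37%, the Sp1 box GGGCGG in 39 (58.2%) against 46.3%, and TATAAA in 7 against 13.3%. These are matches of letters and not measured binding or start sites.

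The stretches from 70 bases before to 20 bases from the annotated start are shown for the structural members with the highest or lowest calls in a comparison, because these members carry different promoter letters. In Rps15a, Rpl28 and Rps26, capitals mark CTCTTTC on the transcript strand, at or close to the start:
Rps15a, chr7:118116128-118116217, minus strand: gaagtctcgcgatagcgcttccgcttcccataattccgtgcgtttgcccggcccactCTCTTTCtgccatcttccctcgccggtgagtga
Rpl28, chr7:4792895-4792984, plus strand: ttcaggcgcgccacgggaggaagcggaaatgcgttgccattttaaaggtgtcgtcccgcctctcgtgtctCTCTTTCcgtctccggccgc
Rps26, chr10:128626487-128626576, minus strand: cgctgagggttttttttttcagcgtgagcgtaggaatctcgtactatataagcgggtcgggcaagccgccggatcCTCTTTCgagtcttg

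In Rpl31, Rps7 and Rps3a1, capitals mark CCGGAAG or its reverse complement CTTCCGG, and CTTTC is absent from the transcript strand of the stretch shown (Rps3a1 holds CTCTTTC on the opposite strand, not capitalised):
Rpl31, chr1:39367781-39367870, plus strand: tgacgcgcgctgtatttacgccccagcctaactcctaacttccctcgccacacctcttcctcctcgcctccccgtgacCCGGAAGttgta
Rps7, chr12:28635934-28636023, minus strand: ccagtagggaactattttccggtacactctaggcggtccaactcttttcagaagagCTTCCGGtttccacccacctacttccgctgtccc
Rps3a1, chr3:86142649-86142738, minus strand: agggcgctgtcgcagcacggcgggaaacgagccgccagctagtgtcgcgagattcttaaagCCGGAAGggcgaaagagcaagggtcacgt

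Neither CTCTTTC nor CCGGAAG was found on either strand in this stretch of Rpl24 or of Rps13, a small subunit gene shown because it followed the shared shift most closely of the members with a promoter, within 0.0226 on every array:
Rpl24, chr16:55966205-55966294, plus strand: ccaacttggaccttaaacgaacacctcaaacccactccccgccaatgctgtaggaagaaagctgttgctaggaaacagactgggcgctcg
Rps13, chr7:116334171-116334260, minus strand: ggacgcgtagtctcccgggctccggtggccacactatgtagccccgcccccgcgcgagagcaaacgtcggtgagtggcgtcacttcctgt

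Most ribosomal protein genes read slightly below WT Tconv in the arrays labelled Nr4a-TKO. The median difference over 85 members was -0.17, against -0.11 for all genes tested, and 79 members were below 0. By limma with Benjamini-Hochberg adjustment over all genes tested, 17 of 85 members (20%) were lower at an adjusted p under 0.05, where 27.6% of all genes tested were lower, and 1 member, Rpl39l, was higher, where 21.1% of all genes tested were. The members' share of lower calls was thus below that of genes in general. The 2 arrays of each group did not overlap for 67 members on the lower side (78.8%, against 49.9% of all genes tested), and for 3 on the higher side (against 32.7%), which all rest on the same 4 arrays and their scaling. The subunits were alike: the medians were -0.17 for 42 large subunit genes (9 lower) and -0.19 for 31 small subunit genes (7 lower). Both groups lie in array row 1. The number of lower calls fell to 0 without either WT Tconv array, to 1 without the first array labelled Nr4a-TKO, to 11 without the second, and to 10 without either WT Treg array. Under quantile normalization the member median was -0.05 (0.03 above that of all genes), with 0 higher and 9 lower; with the median of each array as its scale it was -0.23, with 1 higher and 36 lower.

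Set against WT Treg, the median difference of the arrays labelled Nr4a-TKO was -0.19, while the median of all genes tested was -0.01. Of 85 members 14 were lower (16.5%, against 16.4% of all genes tested) and 1, Rps19bp1, was higher (against 18.5%). The share of lower calls was close to the background, although 78 of 85 members were below 0 and 70 were without overlap on the lower side (82.4%, against 37.8%), with 4 on the higher side (against 37.1%). The median was -0.20 for the large subunit, with 5 lower, and -0.21 for the small subunit, with 8 lower. The member median stayed below 0, and below that of all genes, under each of the 5 other scalings and sources of values, between -0.24 and -0.09. Where a setting only shifts each array by a constant, as median scaling does, the gap to all genes cannot change. Quantile normalization gave 2 higher and 9 lower, and median scaling 1 higher and 5 lower. Lower calls numbered 1 without the first array labelled Nr4a-TKO or without either WT Treg array, 9 without the second, 3 without either WT Tconv array and 20 without either Foxp3-KO array.

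The same arrays against Foxp3-KO preTreg, the other precursor group, gave a median of -0.10 (0.01 for all genes tested), with 6 members lower (7.06%, against 15.6%) and 0 higher (against 17.8%). Rps15a, Rpl28 and Rpl7 had the lowest of these 6 differences. At an unadjusted p under 0.05, 0 of 85 members were higher and 17 lower, against 3299 and 2974 of the 13498 genes tested. Groups were without overlap for 41 members on the lower side (48.2%, against 33.2%) and 4 on the higher (against 35.5%). Under median scaling the member median was -0.01, with 1 higher and 1 lower. Lower calls fell to 0 without the first array labelled Nr4a-TKO, to 4 without the second Foxp3-KO array, and to 1 without each of the other 6 arrays in turn. In bulk RNA of sorted cells, fewer cells of a type and less RNA per cell cannot be told apart.

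Few members differed between the wild-type groups. WT Treg minus WT Tconv had a member median of 0.02 (-0.08 for all genes tested), which was -0.13 with 2 higher and 13 lower under median scaling, a scaling that moved the median of all genes from -0.08 to -0.23. Relative to all genes the members were 0.11 higher under both. That agreement is fixed in advance, because these scalings differ only by a constant on each array. Of 85 members 3 were higher (Rps15a, Rpl24 and Rpl39l; 3.53% against 13.8%) and 2 lower (Rplp1 and Rps19bp1; 2.35% against 20.9%). Groups were without overlap for 19 on the higher side (against 31.0%) and 18 on the lower (against 46.8%). Without either WT Tconv array there were 0 calls; without either WT Treg array there was 1 higher and 0 lower, and without either array labelled Nr4a-TKO there was 1 of each.

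Between Foxp3-KO preTreg and WT Treg no member passed by limma (0 of 85 higher against 3.33% of all genes tested, and 0 lower against 3.12%). At an unadjusted p under 0.05, 1 of 85, Rps27l, was higher and 0 lower, against 1648 and 1754 of the 13498 genes tested. The median was -0.08 against -0.01, with 37 members without overlap on the lower side (43.5%, against 27.5%) and 4 on the higher (against 24.8%). Against WT Tconv, Foxp3-KO preTreg had a median of -0.06 (-0.11 for all genes tested) and 1 lower member, Rplp1 (1.18% against 14.8%), with 0 higher (against 10.3%). At an unadjusted p under 0.05, 3 of 85 were higher and 7 lower, against 2072 and 3533 of the 13498 genes tested. On the lower side 29 members were without overlap (against 45.4%) and 4 on the higher (against 25%). That median was 0.02 under quantile normalization, with 3 higher and 2 lower, and -0.20 under median scaling, with 0 higher and 22 lower. Rplp1 was not called when either WT Tconv or either Foxp3-KO array was left out.

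**Figure D2:**
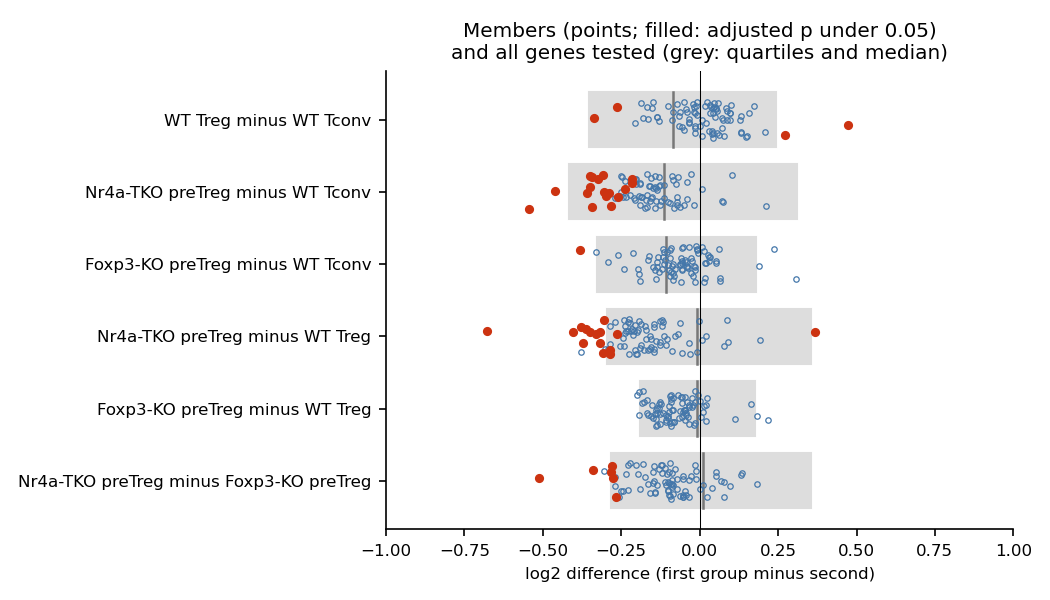
Each point is 1 member's log2 difference between group means, filled where the adjusted p was under 0.05, with the quartiles and median of all 13498 genes tested in grey; Rpl39l, whose differences reach 3.48, lies outside the axis where it exceeds 1. Most members lie inside the grey box, while Rps15a, Rps7 and Rpl31 are among those to its left in a comparison with the arrays labelled Nr4a-TKO, with medians of -0.17 and -0.19 in the arrays labelled Nr4a-TKO against WT Tconv and WT Treg.

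The band was narrow. The interquartile range of the member differences was 0.09 to 0.14 in the 6 comparisons, against 0.37 to 0.73 for all genes tested, and a 2-fold difference was exceeded by no member other than Rpl39l, against 8.48% to 21.5% of all genes tested. The comparisons share groups and are not independent of each other.

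Among the large subunit genes, Rpl24, whose protein forms a bridge to the small subunit, separated by array row. It was at 8.62 and 8.73 in WT Tconv, 8.65 and 8.71 in the arrays labelled Nr4a-TKO, 8.92 and 8.97 in WT Treg, and 8.89 and 8.83 in Foxp3-KO preTreg. The groups in row 2 were above those in row 1 with no overlap, and array row and group cannot be told apart here. The difference was 0.27 ± 0.07 (SE) for WT Treg minus WT Tconv (adjusted p = 0.0382) and -0.26 ± 0.07 for the arrays labelled Nr4a-TKO minus WT Treg (adjusted p = 0.0417). Of the 11 other processing settings, 8 kept the first call and 6 the second. Neither call held when any 1 array of WT Tconv, WT Treg or the group labelled Nr4a-TKO was left out (adjusted p up to 0.242).

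Rpl31, a large subunit protein near the peptide exit tunnel, had the lowest difference from WT Tconv. Its level was 7.85 and 7.92 in WT Tconv, 7.67 and 7.77 in WT Treg, 7.56 and 7.63 in Foxp3-KO preTreg, and 7.20 and 7.49 in the arrays labelled Nr4a-TKO. The groups did not overlap, and the arrays labelled Nr4a-TKO were farther apart from each other than for any other member. The difference of these arrays from WT Tconv, within row 1, was -0.54 ± 0.11 (adjusted p = 0.0132), and among the alternatives it missed the threshold only without either WT Tconv array (highest adjusted p, 0.0769).

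Rpl28 was at 7.02 and 7.17 in WT Tconv, 6.95 and 6.90 in WT Treg, 7.11 and 7.06 in Foxp3-KO preTreg, and 6.67 and 6.83 in the arrays labelled Nr4a-TKO, which were below all others. It was lower there, with differences of -0.34 ± 0.09 from WT Tconv (adjusted p = 0.027) and, from Foxp3-KO preTreg, -0.34 ± 0.09 (adjusted p = 0.0388). The former call held in 9 of the 11 other processing settings and the latter in 7. The former was lost without either WT Tconv array, either WT Treg array or the first array labelled Nr4a-TKO (adjusted p up to 0.147), and the latter without any 1 of the 8 (adjusted p up to 0.155).

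Rpl7, another large subunit protein, was at 8.32 and 8.36 in these arrays and between 8.55 and 8.69 in the other 6. Its differences were -0.22 ± 0.07 from WT Tconv, -0.31 ± 0.07 from WT Treg and -0.28 ± 0.07 from Foxp3-KO preTreg (adjusted p = 0.0488, 0.024 and 0.0313). These calls held in 4, 8 and 7 of the 11 other processing settings. The first ranged from -0.28 to -0.05 over the alternatives (adjusted p up to 0.556). None of the calls held when an array of WT Tconv, WT Treg or the group labelled Nr4a-TKO was left out. The call against Foxp3-KO preTreg was also lost without either Foxp3-KO array.

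Rpl5 and Rpl11 bind 5S ribosomal RNA and, when free of ribosomes, can block Mdm2, the ligase that degrades p53. Rpl5 stood at 7.10 and 7.11 in WT Tconv, 7.01 and 7.14 in WT Treg, 7.05 and 6.93 in Foxp3-KO preTreg, and 6.70 and 6.83 in the arrays labelled Nr4a-TKO. It fell in the latter by 0.34 on the log2 scale from WT Tconv (SE 0.09, adjusted p = 0.0262) and by 0.31 from WT Treg (SE 0.09, adjusted p = 0.0458). The first was lost without either WT Tconv array or the first array labelled Nr4a-TKO (adjusted p up to 0.118), and the second without any 1 array of those groups or of WT Treg (adjusted p up to 0.194). Of the 11 other processing settings, 10 kept the Rpl5 call against WT Tconv and 5 kept that against WT Treg. Rpl11 was at 9.21 and 9.22 in the arrays labelled Nr4a-TKO and between 9.36 and 9.57 elsewhere, without overlap, but none of the differences on this brightest probe passed (-0.29 ± 0.09 from WT Treg, adjusted p = 0.0536). Its dimmest probe, by the fit over single probes, was lower in the arrays labelled Nr4a-TKO (7.44 and 7.49) than in WT Tconv (7.90 and 7.92), WT Treg (7.92 and 7.98) and Foxp3-KO preTreg (8.0 and 7.86). These differences were -0.45 ± 0.09, -0.48 ± 0.09 and -0.47 ± 0.09 (adjusted p = 0.0115, 0.0134 and 0.0151), and the middle probe passed against WT Treg alone (-0.31 ± 0.09, adjusted p = 0.0478).

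Among the small subunit genes, Rps15a had the widest range of all structural members. It was at 8.56 and 8.60 in WT Tconv, 8.97 and 9.14 in WT Treg, 8.95 and 8.83 in Foxp3-KO preTreg, and 8.34 and 8.41 in the arrays labelled Nr4a-TKO. No groups overlapped, and WT Treg was highest and the arrays labelled Nr4a-TKO lowest. The latter differed from WT Treg by -0.68 ± 0.09 (adjusted p = 0.00503), a call that held in all 19 alternatives (adjusted p 0.000925 to 0.0326), and from Foxp3-KO preTreg by -0.51 ± 0.09 (adjusted p = 0.0122, lost without the first array labelled Nr4a-TKO and with only the 2 groups fitted). WT Treg exceeded WT Tconv by 0.47 ± 0.09 (adjusted p = 0.0134, lost without either WT Tconv array or the second WT Treg array, and with the probes averaged). These 3 comparisons cross the array rows, and group cannot be told apart from row in them. Within row 1 the difference was -0.20 ± 0.09 (adjusted p = 0.112), and within row 2 Foxp3-KO preTreg differed from WT Treg by -0.17 ± 0.09 (adjusted p = 0.316).

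Rps7, another small subunit protein, was at 7.85 and 7.89 in WT Tconv, 7.76 and 7.86 in WT Treg, 7.73 and 7.62 in Foxp3-KO preTreg, and 7.31 and 7.50 in the arrays labelled Nr4a-TKO. These lay below all others, with differences of -0.46 ± 0.09 from WT Tconv (adjusted p = 0.0122) and -0.41 ± 0.09 from WT Treg (adjusted p = 0.025). Rps3a1 followed the same order, at 7.22 and 7.21, 7.11 and 7.23, 7.10 and 7.07, and 6.76 and 6.95, with differences of -0.36 ± 0.09 (adjusted p = 0.0234) and -0.32 ± 0.09 (adjusted p = 0.0439). Of the 11 other processing settings, 11 and 10 kept the Rps7 calls, and 10 and 6 those of Rps3a1. Rps26, which lines the mRNA exit channel, was at 8.68 and 8.77, 8.83 and 8.88, 8.75 and 8.67, and 8.42 and 8.54 in the same order of groups. Only its difference from WT Treg passed (-0.38 ± 0.08, adjusted p = 0.0202), and that from WT Tconv did not (-0.25 ± 0.08, adjusted p = 0.0525). The calls against WT Tconv were lost without either WT Tconv array or the first array labelled Nr4a-TKO, and those against WT Treg without either WT Treg array or that same array, and for Rps7 and Rps3a1 also without either WT Tconv array (adjusted p up to 0.187).

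Rps6, the substrate of the S6 kinases, was at 8.45 and 8.54 in WT Tconv, 8.55 and 8.64 in WT Treg, 8.64 and 8.45 in Foxp3-KO preTreg, and 8.39 and 8.46 in the arrays labelled Nr4a-TKO, and no comparison passed on this brightest probe (lowest adjusted p, 0.209). Rpsa, also known as a laminin receptor, stayed between 9.26 and 9.48 on all 8 arrays, and no comparison passed on this brightest probe (lowest adjusted p, 0.372), while a further probe was higher in the arrays labelled Nr4a-TKO than WT Treg by 0.52 (adjusted p = 0.0355 in the fit over single probes).

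The stalk genes did not follow one pattern. Rplp0, the stalk base, was between 9.55 and 9.83 and Rplp2 between 9.44 and 9.67, and neither passed in any comparison. Rplp1, the partner of Rplp2, was at 9.07 and 9.19 in WT Tconv, 8.73 and 8.85 in WT Treg, 8.84 and 8.92 in the arrays labelled Nr4a-TKO, and 8.78 and 8.72 in Foxp3-KO preTreg. WT Tconv lay above all other groups without overlap. The difference was -0.34 ± 0.08 for WT Treg minus WT Tconv (adjusted p = 0.0296) and -0.38 ± 0.08 for Foxp3-KO preTreg minus WT Tconv (adjusted p = 0.0288), both across the array rows and both lost without any 1 array of the groups compared (adjusted p up to 0.167). Within row 1, the arrays labelled Nr4a-TKO minus WT Tconv gave -0.25 ± 0.08 (adjusted p = 0.0555).

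The paralogs ranged from undetected to among the brighter genes. Rpl39l, the paralog of Rpl39 known from germ cells, was at -6.10 and -5.32 in WT Tconv, below background on both arrays, at -1.09 and -3.37 in WT Treg, at -2.56 and -2.32 in the arrays labelled Nr4a-TKO, and at -5.76 and -3.28 in Foxp3-KO preTreg, above background on 1 of 2 arrays. Against the background level in WT Tconv it was at least 6.85-fold higher in WT Treg, at least 5.93-fold higher in the arrays labelled Nr4a-TKO, and at least 1.40-fold higher in Foxp3-KO preTreg. These bounds were not tested. The limma fit used the values below background and gave adjusted p = 0.0493, 0.0456 and 0.418, so the WT Treg and Nr4a-TKO differences were called. Rpl39l passed the filter only through those groups, where it was high, so these calls are weak support. Both calls were lost without either WT Tconv array or either array labelled Nr4a-TKO, and the first also without the first WT Treg array (adjusted p up to 0.198 and 0.179). Without the first WT Treg array its bound was at least 3.10-fold and without the second at least 15.1-fold. Both calls were also lost under quantile normalization, without the filter on dim probes and with the replicate block, the WT Treg call with probes averaged and the other with normexp correction. For Foxp3-KO preTreg the bound was at least 3.30-fold without the first array, and there was none without the second. The WT Treg replicates lay farther apart for this gene than for any other tested member.

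Rpl39 itself was between 7.94 and 8.24 and passed in no comparison. Rps27l, the paralog of Rps27 known as a p53 target, was at 5.19 and 5.23 in WT Tconv and 5.25 and 5.20 in WT Treg, against 5.44 and 5.40 in the arrays labelled Nr4a-TKO and 5.53 and 5.37 in Foxp3-KO preTreg. Both precursor groups lay above both wild-type groups without overlap, but no difference passed (0.21 ± 0.08, adjusted p = 0.0765, and 0.24 ± 0.08, adjusted p = 0.082, from WT Tconv). Rps27 was between 9.43 and 9.63, and passed in no comparison.

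Rpl22l1, the paralog of Rpl22, which is needed for normal development of alpha-beta T cells, was at 6.79 and 6.79 in WT Tconv, 6.65 and 6.67 in WT Treg, 6.59 and 6.61 in the arrays labelled Nr4a-TKO, and 6.85 and 6.70 in Foxp3-KO preTreg. Its lowest adjusted p was 0.0844, and that of Rpl22, between 8.32 and 8.54, was 0.1 on the brightest probe, while a further Rpl22 probe passed in the arrays labelled Nr4a-TKO minus WT Treg (-0.52, adjusted p = 0.0264 in the fit over single probes). Rpl36al (5.95 to 6.24) and Rpl36a (7.13 to 7.43), Rpl7l1 (-0.73 to -0.41), Rpl37rt (9.32 to 9.57), Rpl10 (9.12 to 9.31), Rpl3 (7.77 to 8.14) and Rpl32 (8.85 to 9.15) passed in no comparison. Rpl32l was lower in the arrays labelled Nr4a-TKO (7.88 and 8.0) than in WT Treg (8.28 and 8.30), a difference of -0.35 ± 0.09 (adjusted p = 0.0312), a call lost without any 1 array of WT Tconv, WT Treg or the group labelled Nr4a-TKO (adjusted p up to 0.133). Retroposed copies such as Rpl32l and Rpl37rt are near-identical to their parent genes, so their probes may read the parent's RNA, and their values are uncertain. Rpl10l, known from testis, and Rpl3l, known from striated muscle, were not above background on both arrays of any group and have no test.

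The members by symbol alone were Rps19bp1 and Rps23rg1. Rps19bp1, whose product binds Rps19 and activates the deacetylase Sirt1, was at 2.24 and 2.32 in WT Tconv, 1.98 and 2.06 in WT Treg, 2.23 and 2.17 in Foxp3-KO preTreg, and 2.35 and 2.42 in the arrays labelled Nr4a-TKO. The last was the highest group and WT Treg the lowest, without overlap, and the differences were 0.37 ± 0.07 between them (adjusted p = 0.0172) and -0.26 ± 0.07 for WT Treg minus WT Tconv (adjusted p = 0.0429). The first was lost without any 1 array of those groups (adjusted p up to 0.0849), and the second without any 1 array of WT Tconv, WT Treg or the group labelled Nr4a-TKO (adjusted p up to 0.216). Rps23rg1, a retroposed gene derived from Rps23, was at -0.07 and -0.05 in WT Tconv and -0.39 and -0.34 in the arrays labelled Nr4a-TKO, a difference of -0.31 ± 0.08 (adjusted p = 0.0267), with the other arrays between -0.35 and -0.19. Like every lower call of that comparison, the Rps23rg1 call was lost without either WT Tconv array.

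**Figure D3:**
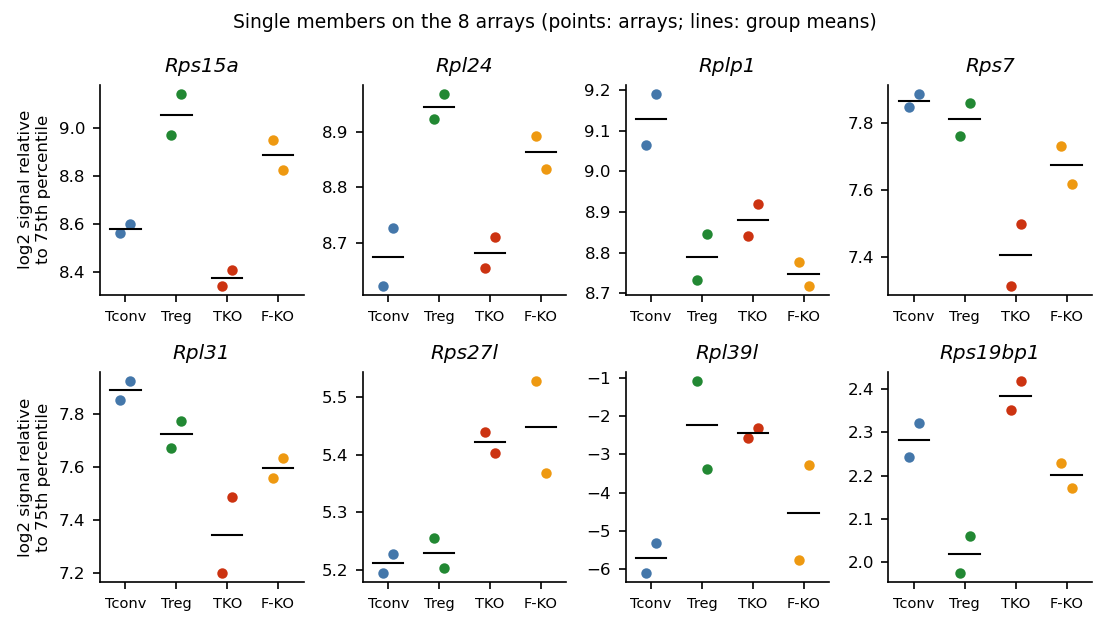
Log2 signal relative to the array's 75th percentile for 8 members on the 8 arrays (points) with group means (lines); Tconv and Treg are wild-type, TKO is Nr4a-TKO preTreg and F-KO is Foxp3-KO preTreg, and each panel has its own axis. Rps15a and Rpl24 are high in Treg and F-KO, the groups of array row 2, Rplp1 is high in Tconv, and Rps7 and Rpl31 are lowest in TKO.

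For 51 of the 85 tested genes, 85 further probes were tested, and these mostly repeated the brightest probe. The median absolute gap between the difference on a further probe and that on the brightest was 0.04 to 0.05 in the 6 comparisons. Gaps over 0.5 were found for 1 to 6 further probes in each comparison, among them probes of Rps15a, Rps2, Rps24 and Rps6. The probes below were singled out after their values were seen, and their adjusted p-values come from a separate limma fit over all 29750 probes that passed the filter.

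The second Rps15a probe repeated the first, at 7.97 and 8.05 in WT Tconv, 8.52 and 8.62 in WT Treg, 7.77 and 7.84 in the arrays labelled Nr4a-TKO, and 8.42 and 8.31 in Foxp3-KO preTreg. Its difference between the arrays labelled Nr4a-TKO and WT Treg was -0.77 ± 0.09 (adjusted p = 0.00377). The remaining Rps15a probe did not repeat this pair. It was among the probes with the wide gaps counted above in every comparison except Foxp3-KO preTreg minus WT Treg. With the probes averaged, the Rps15a call for WT Treg minus WT Tconv was lost, while the other Rps15a calls were kept. A dim probe of Rps6 did not repeat the others: it was between 3.46 and 3.69 on the 6 other arrays and at 2.19 and 2.14 in the arrays labelled Nr4a-TKO. Its difference from WT Tconv was -1.52 ± 0.08 (adjusted p = 0.000393), where the brightest Rps6 probe differed by -0.07 ± 0.10.

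A dim probe of Rps24 moved the other way. It was at 2.87 and 2.75 in WT Tconv, 3.29 and 3.42 in WT Treg, 3.75 and 2.88 in Foxp3-KO preTreg, and 4.16 and 4.12 in the arrays labelled Nr4a-TKO, which exceeded WT Tconv by 1.33 ± 0.27 (adjusted p = 0.0137), while the brightest Rps24 probe gave -0.14 ± 0.09. The second probe of Rps2, a small subunit protein at the mRNA entry side, was at 6.08 and 6.16 in WT Tconv and between 6.71 and 7.84 elsewhere, with 7.69 and 6.71 in the WT Treg replicates, while the brightest stayed between 7.05 and 7.36. Against WT Tconv that second probe gave 1.22 ± 0.31 in the arrays labelled Nr4a-TKO and 1.62 ± 0.31 in Foxp3-KO preTreg (adjusted p = 0.0275 and 0.0262). Which transcripts these probes read was not tested.

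**Figure D4:**
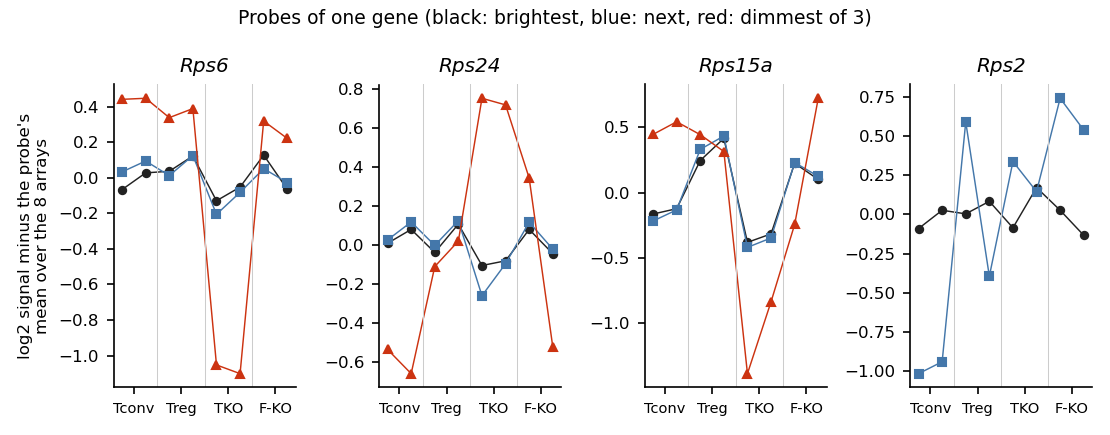
Log2 signal of each probe minus the probe's own mean over the 8 arrays for 4 genes, with the brightest probe in black, the next in blue and the dimmest in red; group names are as in the plot of single members. The Rps15a pair of bright probes run together, while the remaining Rps15a probe departs from them. The dimmest Rps6 probe drops and the dimmest Rps24 probe rises in TKO, and the second Rps2 probe is lowest in Tconv.

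Against WT Tconv, the genes that build the ribosome were mostly lower in WT Treg and Foxp3-KO preTreg. Both comparisons cross the array rows, so group and row cannot be told apart in them. Of 51 ribosome biogenesis genes, which process ribosomal RNA and assemble subunits, 28 were lower (54.9%, against 20.9% of all genes tested) and 0 higher (against 13.8%) in WT Treg, with a median of -0.31 where all genes had -0.08 and the structural members 0.03. Examples were Tsr1, a factor of small subunit maturation (-0.73 ± 0.07, adjusted p = 0.00202), Gar1, of the pseudouridylation particles (-0.64 ± 0.08, adjusted p = 0.00371), and Wdr12, of large subunit assembly (-1.01 ± 0.14, adjusted p = 0.00493). In Foxp3-KO preTreg, 28 were lower (54.9%, against 14.8%) and 0 higher (against 10.3%), with a median of -0.34 against -0.11 for all genes, and Fbl, the ribosomal RNA methyltransferase, was at -0.70 ± 0.08 (adjusted p = 0.00555). In the arrays labelled Nr4a-TKO, which share row 1 with WT Tconv, 16 were lower (31.4%), close to the 27.6% of all genes, and 3 higher (5.88%, against 21.1%). The median was -0.20 against -0.11, and Emg1, a pre-rRNA methyltransferase, was at -0.66 ± 0.09 (adjusted p = 0.00366).

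In the remaining comparisons of the arrays labelled Nr4a-TKO, the biogenesis medians lay above 0 and the structural medians below. Both comparisons cross the array rows, and group cannot be told apart from row in them. Against WT Treg 13 were higher (25.5%, against 18.5% of all genes) and 2 lower (3.92%, against 16.4%), with medians of 0.07 for biogenesis, -0.01 for all genes and -0.20 for the structural members. Against Foxp3-KO preTreg 15 were higher (29.4%, against 17.8%) and 2 lower (3.92%, against 15.6%), with medians of 0.20, 0.01 and -0.10. Rrp1b, a nucleolar protein, was at 0.79 ± 0.09 (adjusted p = 0.00288) and 1.1 ± 0.09 (adjusted p = 0.00166). Between Foxp3-KO preTreg and WT Treg, which share row 2, 0 passed by limma (against 3.33% of all genes tested higher and 3.12% lower), with a median of -0.07. At an unadjusted p under 0.05, 2 of 51 were higher and 7 lower, against 1648 and 1754 of the 13498 genes tested.

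The signs of the biogenesis medians in these comparisons were the same under the 6 scalings and sources of values, but the counts moved. Lower calls were 23 to 36 in WT Treg, 20 to 39 in Foxp3-KO preTreg and 13 to 20 in the arrays labelled Nr4a-TKO against WT Tconv, and higher calls in the latter were 10 to 18 against WT Treg and 13 to 22 against Foxp3-KO preTreg.

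Of 77 mitochondrial ribosomal proteins, which form a separate ribosome, 40 were lower (51.9%, against 20.9% of all genes) and 1 higher (against 13.8%) in WT Treg than in WT Tconv, with Mrps28 at -0.90 ± 0.09 (adjusted p = 0.00223). In the arrays labelled Nr4a-TKO 29 were lower (37.7%, against 27.6%) and 1 higher (against 21.1%), and in Foxp3-KO preTreg 27 were lower (35.1%, against 14.8%) and 0 higher (against 10.3%). WT Treg and Foxp3-KO preTreg lie in array row 2, so against WT Tconv or the arrays labelled Nr4a-TKO their group and row cannot be told apart. Against WT Treg the arrays labelled Nr4a-TKO were higher for 13 (16.9%, against 18.5%) and lower for 3 (3.90%, against 16.4%), and against Foxp3-KO preTreg higher for 10 (13%, against 17.8%) and lower for 5 (6.49%, against 15.6%), so neither share of higher calls exceeded that of all genes. Over the 6 scalings and sources, lower calls against WT Tconv were 29 to 59, 25 to 36 and 15 to 53 in WT Treg, the arrays labelled Nr4a-TKO and Foxp3-KO preTreg, and higher calls in the arrays labelled Nr4a-TKO were 11 to 26 against WT Treg and 7 to 17 against Foxp3-KO preTreg. The median of Foxp3-KO preTreg minus WT Treg was 0.04, with 0 calls by limma (against 3.33% of all genes higher and 3.12% lower). At an unadjusted p under 0.05, 3 of 77 were higher and 2 lower, against 1648 and 1754 of the 13498 genes tested.

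The 13 elongation factors and other genes with TOP mRNAs also varied little: 13 of 13 had a range under 0.5 over the 8 arrays, against 47 of 77 mitochondrial ribosomal protein genes and 22 of 51 biogenesis genes. Their median brightness percentiles were 98.6, 78.6 and 70.9 in that order, and the spread was not matched for brightness. In 5 of the 6 comparisons 0 of the 13 TOP genes passed by limma (with 0 to 2 per comparison at an unadjusted p under 0.05). The shares of all genes passing there ran from 3.12% to 27.6% in a given direction. Against WT Treg the arrays labelled Nr4a-TKO were lower for 2 TOP genes (15.4%, against 16.4%), Naca, of the nascent chain complex (-0.27 ± 0.07, adjusted p = 0.0337), and Eef2, the translocation factor (-0.32 ± 0.10, adjusted p = 0.0491). The shared shift of the TOP genes per array ran from -0.12 on the first array labelled Nr4a-TKO to 0.07 on the second WT Treg array, the arrays at which the structural members were also lowest and highest. The sign of their median against WT Tconv changed with the scaling in each of the 3 comparisons (-0.15 to 0.06 for WT Treg, -0.15 to 0.02 for the arrays labelled Nr4a-TKO, and -0.18 to 0.03 for Foxp3-KO preTreg). Of 33 initiation factors, 8 were lower in WT Treg (24.2%, against 20.9% of all genes), 9 in the arrays labelled Nr4a-TKO (27.3%, against 27.6%) and 7 in Foxp3-KO preTreg (21.2%, against 14.8%) than in WT Tconv. The shares of lower calls in WT Treg and the arrays labelled Nr4a-TKO were thus near those of all genes. In the same order 1, 1 and 0 were higher, against 13.8%, 21.1% and 10.3% of all genes. Under median scaling 11, 11 and 17 were lower, and under quantile normalization 5, 8 and 5. Eif4a1, the RNA helicase, was at -0.60 ± 0.08, -0.52 ± 0.08 and -0.49 ± 0.08 (adjusted p = 0.00475, 0.00517 and 0.0135).

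Of 11 RNA polymerase I genes, which transcribe ribosomal RNA, 3 were lower in WT Treg (27.3%, against 20.9% of all genes), 6 in the arrays labelled Nr4a-TKO (54.5%, against 27.6%) and 4 in Foxp3-KO preTreg (36.4%, against 14.8%) than in WT Tconv. In each of these comparisons 0 were higher (against 13.8%, 21.1% and 10.3%). Rrn3, the initiation factor of that polymerase, was at -0.56 ± 0.09, -0.60 ± 0.09 and -0.41 ± 0.09 (adjusted p = 0.00863, 0.00496 and 0.0287). Of 18 regulators of ribosome production, 8 were lower (44.4%, against 27.6%) and 1 higher (5.56%, against 21.1%) in the arrays labelled Nr4a-TKO against WT Tconv. Eif4ebp1, the translational repressor that mTORC1 inactivates, was higher in the arrays labelled Nr4a-TKO, by 1.54 ± 0.10 against WT Tconv (adjusted p = 0.000575) and against WT Treg by 1.04 ± 0.10 (adjusted p = 0.00207). It also exceeded WT Tconv in WT Treg (0.50 ± 0.10, adjusted p = 0.0166) and in Foxp3-KO preTreg (0.60 ± 0.10, adjusted p = 0.015). Myc, a transcription factor that drives ribosome production, was lower in the arrays labelled Nr4a-TKO, with differences of -0.74 ± 0.09 from WT Tconv (adjusted p = 0.00296) and -0.92 ± 0.09 from WT Treg (adjusted p = 0.00226).

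**Figure D5:**
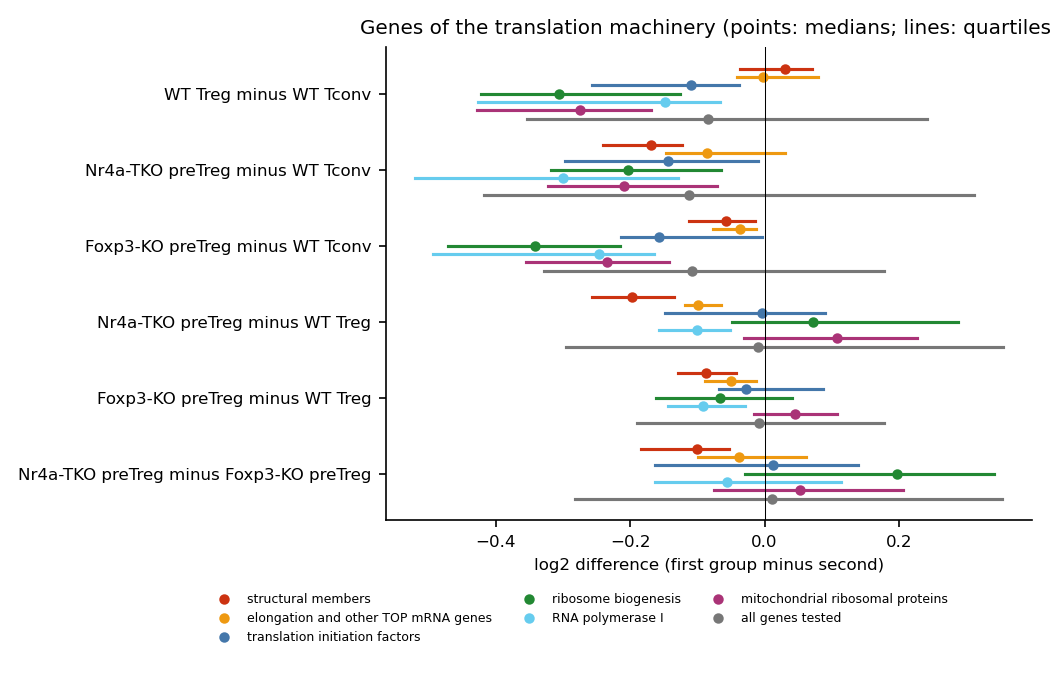
Medians (points) and quartiles (lines) of the log2 differences between group means for the 76 structural ribosomal protein genes, 5 lists of the translation machinery and all 13498 genes tested. The structural genes and the TOP mRNA genes have short lines, with structural medians from -0.20 to 0.03. The biogenesis and mitochondrial lists lie to their left against WT Tconv (medians -0.31 and -0.28 in WT Treg). In the arrays labelled Nr4a-TKO they are only slightly left of the structural genes (-0.20 and -0.21, against -0.17). Those lists lie to the right in the arrays labelled Nr4a-TKO against WT Treg (0.07 and 0.11).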

How the data were processed

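Expression was measured on 8 one-colour Agilent arrays, 2 biological replicates of each of 4 groups. The deposited scanner files give, for every spot, a Cy3 intensity from which background had been subtracted and spatial trends removed, with no normalization between arrays, per the file headers. The submitters' processing notes name the software, Agilent Feature Extraction 10.7.1.1. The deposited series matrix of intensity was a constant multiple of it on each array and served as an alternative. Per the file headers, the array was annotated on an older genome build, so coordinates come from the RefSeq tables alone.

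Control and outlier spots were left out. Intensity was put on the log2 scale, each array's 75th percentile was subtracted, spots of a probe were averaged, and the brightest probe stood for a gene. Symbols came from matching RefSeq accessions: of 55681 probes 28026 had a symbol, and 1595 accessions were unmatched. Genes well above background on both arrays of at least 1 group (13498) were fitted over all 4 groups in R 4.3.3 using limma 3.58.1, whose moderated test had 4 residual and 1.60 prior degrees of freedom and no intensity trend, with Benjamini-Hochberg adjustment over all genes tested at 0.05 within each of 6 comparisons. The fit was tested on simulated data with independent noise for each gene and array. Those data do not carry the shared shift seen in the members. For a gene below background in a group, the fold is a bound, taken from the lowest signal among probes above background on each array. The labels call the replicates biological without naming animals, so p-values measure only the spread between these samples. The number of arrays limits the precision. Promoters came from RefSeq.

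Named members were the 3 highest and 3 lowest calls without overlap per comparison, the stalk genes, Rpsa, Rps6, Rpl5 and Rpl11 by role, paralogs with their partners, members untested, and those with the widest replicate difference in a group. From each other list, up to 4 genes per comparison with the smallest adjusted p could be named. The members and lists were chosen with earlier results of these data known. Rpl31-ps12 and Rpl34-ps1, named as pseudogenes, were left out. The marker lists of granulocytes, stroma, red cells, immature or CD8 thymocytes and innate-like cells summed to 1.15 to 3.60, 8.70 to 13.1, 0.170 to 0.720, 59.7 to 86.6 and 3.86 to 46.9 times the 75th percentile over the 8 arrays. A few items are not reported here.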

Additional observations from a re-analysis of the deposited data

How the results depend on the processing

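The arrays labelled Nr4a-TKO kept a member median below 0 against each other group under all alternatives, and Foxp3-KO preTreg kept one against WT Treg, where no member was called in any. The count of calls moved much more. Quantile normalization gave 1 lower member for WT Treg minus WT Tconv, 0 higher and 9 lower for Nr4a-TKO minus WT Tconv (median -0.05), 3 higher and 2 lower for Foxp3-KO minus WT Tconv, and 2 higher and 9 lower for Nr4a-TKO minus WT Treg (median -0.09). Scaling by the array median gave 13 lower (median -0.13), 36 lower (median -0.23) and 22 lower (median -0.20) for WT Treg, Nr4a-TKO and Foxp3-KO minus WT Tconv, 5 lower for Nr4a-TKO minus WT Treg (median -0.10), and 1 higher and 1 lower for Nr4a-TKO minus Foxp3-KO. Normexp background correction gave 0 higher for Nr4a-TKO minus WT Tconv, and 1 higher and 4 lower for Foxp3-KO minus WT Tconv.

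Without the filter on dim probes there were 1 higher and 0 lower for WT Treg minus WT Tconv, 0 higher and 6 lower for Nr4a-TKO minus WT Tconv, 0 lower for Foxp3-KO minus WT Tconv, 8 lower for Nr4a-TKO minus WT Treg and 3 lower for Nr4a-TKO minus Foxp3-KO. With probes above background on all arrays there were 0 higher for Nr4a-TKO, and 1 higher and 3 lower for Foxp3-KO, against WT Tconv. The mean of a gene's probes gave 2 and 1 higher for these. An intensity trend in the variance gave 2 higher and 32 lower for Nr4a-TKO minus WT Tconv, 2 higher and 4 lower for Foxp3-KO minus WT Tconv, 33 lower for Nr4a-TKO minus WT Treg and 14 lower for Nr4a-TKO minus Foxp3-KO. Fitting only the groups compared gave 11, 0, 3 and 0 lower in those comparisons, with fewer residual degrees of freedom. Setting the median of detected genes equal, chosen after seeing the data, gave 0 lower for WT Treg and 1 higher for Foxp3-KO against WT Tconv, and 26 lower for Nr4a-TKO minus WT Treg. The causes of these shifts were not tested.

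The replicate numbers were not taken as pairing the samples, since not all correlations of deviations between same-numbered arrays were over 0.1: they were -0.0285 to -0.0105 for WT Tconv with each other group, and 0.148 to 0.259 among the other 3 groups. With the replicate block there were 1 higher and 1 lower for WT Treg minus WT Tconv, 0 higher for Nr4a-TKO minus WT Tconv, 9 lower for Nr4a-TKO minus WT Treg and 1 lower for Nr4a-TKO minus Foxp3-KO, and 11 of the 25 named calls were lost: both of Rpl24 and of Rpl39l, Rpl5, Rps3a1 and Rpl32l against WT Treg, Rpl7 against WT Tconv and Foxp3-KO, Rpl28 against Foxp3-KO, and Rps19bp1 for WT Treg minus WT Tconv. Leaving out 1 array at a time, with the lone array assumed to vary like the other groups, the median ranged from -0.22 to -0.13, -0.23 to -0.14 and -0.16 to -0.03 for Nr4a-TKO minus WT Tconv, WT Treg and Foxp3-KO, with 0 to 2, 0 to 1 and 0 higher and 0 to 20, 1 to 20 and 0 to 4 lower. It ranged from -0.01 to 0.06 for WT Treg minus WT Tconv (0 to 3 higher, 0 to 2 lower), -0.11 to -0.01 for Foxp3-KO minus WT Tconv (0 to 1 higher, 0 to 1 lower) and -0.13 to -0.02 for Foxp3-KO minus WT Treg (0 and 0). None of 25 named differences reversed, and Rps15a in Nr4a-TKO minus WT Treg kept its call in all 19 alternatives. With signal at the 75th percentile 8.90 to 10.4 times the local background, dim members such as Rpl39l are the least certain.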
